A study of Mus musculus with 8 samples.

Results

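The nuclear-encoded subunits of the oxidative phosphorylation machinery were taken by symbol (Nduf, Sdh, Uqcr, Cox and Atp5 families) from the genes named on the array. They were 84 of 19505 genes, with 37 in complex I, 4 in complex II, 8 in complex III, 18 in complex IV and 17 in complex V. They were compared between 4 mice with impaired memory and 4 mice with intact memory. All 8 mice belonged to the amyloid precursor protein transgenic line known as B6.Cg-Tg(APPswe)E1-2Dbo/J, so that both groups carried the transgene and no mice without it were compared. They were 18 to 20 months old, had been tested in the Morris water maze, a swimming task of spatial memory, and each gave 1 hippocampus sample and 1 Affymetrix array. The labels do not say how impairment was scored, and give no sex or array batch.

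Oxidative phosphorylation makes most of the ATP of a neuron. Complex I (NADH dehydrogenase) and complex II (succinate dehydrogenase) pass electrons to ubiquinone, complex III hands them to cytochrome c, complex IV (cytochrome c oxidase) passes them to oxygen, and complex V (ATP synthase) uses the proton gradient that results. Nuclear genes encode all of complex II and most subunits of the others, while mitochondrial DNA encodes the remaining core subunits, which were not analysed here. Loss of complex IV activity in brain and lower levels of respiratory subunit transcripts have been described in Alzheimer disease.

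Expression is given as log2 values after robust multi-array averaging (RMA), in which a difference of 1 is a doubling. Differences are impaired minus intact throughout. Array medians over the named probe sets lay between 7.02 and 7.05. Probe sets for introns, which serve as negative controls, gave the background: 80 of the 84 subunit genes had a mean above the 75th percentile of these controls (6.30) and 72 a mean above their 95th percentile (7.92), which 34.5% of all genes exceeded. Of 10 markers of hippocampal subfields, 1 lay below the 75th percentile. In whole tissue, fewer cells of a type and less RNA per cell cannot be told apart.

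No subunit of any complex differed between impaired and intact mice by more than the spread between mice allowed to call. Of the 19505 genes, 0 (0.0%) passed limma's test at an adjusted p of 0.05, and 963 genes (4.94%) had an unadjusted p under 0.05. Of the 84 subunit genes, 0 were called and 0 had an unadjusted p under 0.05. Their adjusted p ran from 0.963 upwards. At an unadjusted p under 0.1 stood 1 subunit gene, or 1.19%, against 10.1% of all genes. Among the 6723 genes above the 95th percentile of the intron controls, 4.8% had an unadjusted p under 0.1. Of these genes 1.65% had an unadjusted p under 0.05. The smallest p, 0.0547, belonged to the testis-type complex IV subunit Cox8c.

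The intervals set limits on how large a difference could have been missed. The median standard error of a difference was 0.091 for the subunit genes and 0.12 for all genes. The 95% interval of the difference lay within a 1.5-fold change in either direction for 83 of the 84 subunit genes, or 98.8%, the exception being the muscle-type subunit Cox8b. It lay within a 1.3-fold change for 76 of them, or 90.5%. Among all genes 87.2% and 53.2% had intervals within these limits, and among the 6723 genes above the 95th percentile of the intron controls 97.9% and 82.2%. The intervals are for each gene on its own and were not widened for the number of genes.

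**Figure D1:**
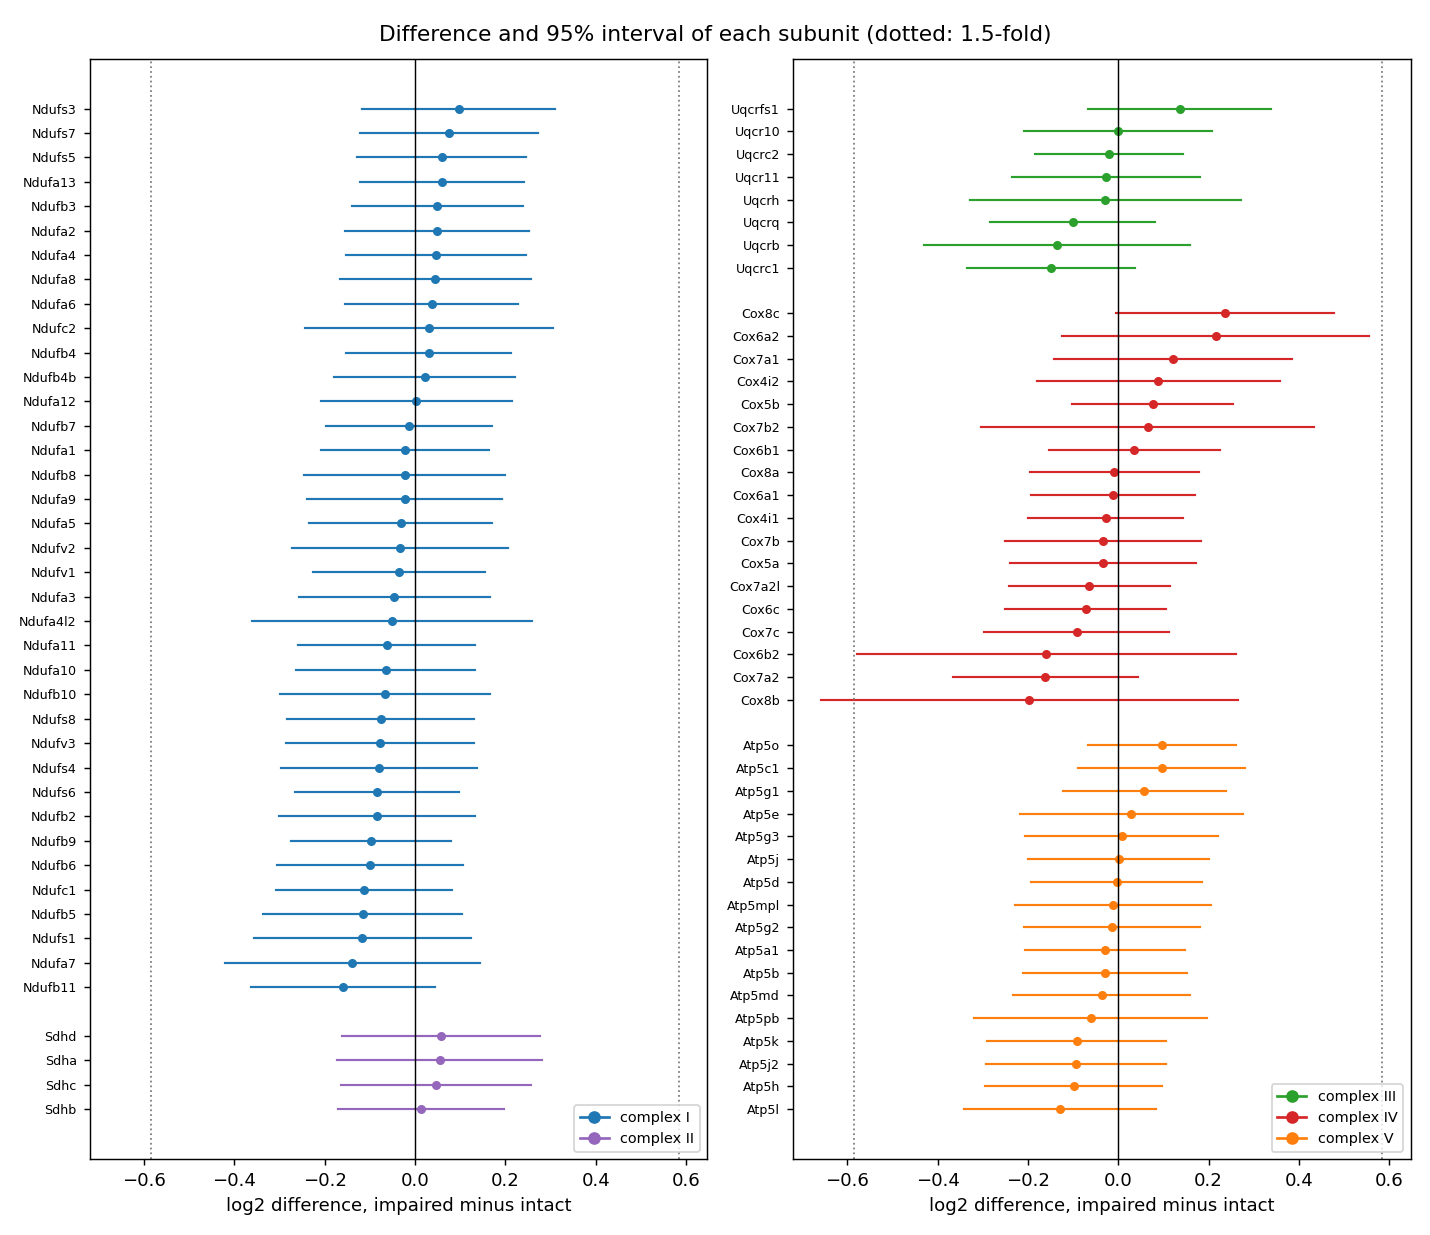
Log2 difference, impaired minus intact (point), with its 95% interval (line) for each of the 84 subunit genes, ordered by difference within each complex; dotted lines mark a 1.5-fold change. All 84 intervals include 0, and 83 lie between the dotted lines, with Cox8b reaching past the lower one.

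Most subunit genes had slightly lower values in the impaired mice, but this split depended on single mice and on the scaling. As deposited, 53 of 84 subunit genes (63.1%) were lower in the impaired group, with a median difference of -0.025. Of all genes 50.4% were lower, with a median of -0.0013, and of the genes above the 95th percentile of the intron controls 57.6%, with a median of -0.018. Without intact mouse 2, 42 of the 84 were lower and the median was 0.00093, and without impaired mouse 3, 46 were lower and the median was -0.0079. After quantile normalization over the genes tested, 41 (48.8%) were lower and the median was 0.0073. The values of several lists of cell type and region markers were also uneven between the same groups, with 0 genes called by limma in each list. Choroid plexus markers were lower in the impaired mice for 13 of 13 genes (median -0.52), with mean levels over the list per mouse of 6.58 to 7.81 in impaired mice and 6.56 to 8.48 in intact mice. Oligodendrocyte markers were lower for 9 of 9 (-0.16) and neuron markers for 9 of 12 (-0.059, from -0.18 to 0.86), while thalamus markers were higher for 12 of 12 (0.28). Endothelial and mural markers were lower for 8 of 12 (-0.081) and hippocampal subfield markers for 6 of 10 (-0.072). Astrocyte markers were higher for 6 of 9 (0.011) and microglia markers for 7 of 9 (0.019), and interneuron markers were split 4 and 4 (-0.0023). The part of these cells and regions in the split of the subunit genes was not tested.

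By complex, the median difference was -0.033 in complex I, 0.051 in complex II, -0.028 in complex III, -0.020 in complex IV and -0.014 in complex V. Lower values in the impaired group were seen for 24 of 37 genes of complex I, 0 of 4 of complex II, 7 of 8 of complex III, 11 of 18 of complex IV and 11 of 17 of complex V. As deposited, each of these medians was smaller than the SD between mice of a group of the same complex's per-mouse median (0.045, 0.086, 0.033, 0.057 and 0.057). That SD is the spread of single mice, which is larger than the error of a difference between group means. The genes of a complex share the same 8 samples, so that their counts carry no test. Leaving out 1 mouse moved each of them by more than 1.5 times. The median of complex I was -0.0057 without intact mouse 2 and -0.0047 without impaired mouse 3, and that of complex II 0.0092 without intact mouse 4. That of complex III was -0.087 without intact mouse 4, past its SD between mice. The medians of complexes IV and V were 0.016 and 0.011 without intact mouse 2, and 0.013 and 0.030 after quantile normalization. That of complex IV was also above 0, at 0.0012, without impaired mouse 1, and that of complex V was -0.0023 without impaired mouse 3.

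The mouse with the highest subunit levels was intact mouse 2. For each gene, the deviation of a mouse from the gene's mean over the 8 mice was taken, and the median over the 84 genes described the mouse. The medians were 0.0010, 0.012, -0.036 and 0.0095 in impaired mice 1 to 4, against -0.015, 0.094, -0.032 and -0.0093 in intact mice 1 to 4. Intact mouse 2 was the only mouse above 0.02 in the values as deposited. It lay above the gene's own mean for 71 of 84 subunit genes, or 84.5%, against 53.1% of all genes and 55.7% of the genes above the 95th percentile of the intron controls. It was the highest of the 8 mice for 38 subunit genes, or 45.2%, against 14.7% of all genes and 17.0% of the genes above that percentile. Impaired mouse 3 was the lowest for 23 of them (27.4%), against 17.0% of all genes and 20.1% of the genes above that percentile.

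All 5 complexes were high in intact mouse 2, with median deviations of 0.093, 0.098, 0.080, 0.13 and 0.099 in complexes I to V. It was the highest mouse for 15 of 37 genes of complex I, 1 of 4 of complex II, 4 of 8 of complex III, 9 of 18 of complex IV and 9 of 17 of complex V. With each array centred on its median it stayed the highest mouse for 31 of the 84, and after quantile normalization for 25, more than any other mouse in both cases. Across pairs of subunit genes, the median correlation over the 8 mice, which share arrays and scaling, was 0.16, and without intact mouse 2 it was 0.025. Among all genes above the 95th percentile of the intron controls it was 0.033 and 0.036. Within complex V it was 0.24 with that mouse and 0.17 without it, and within complex II 0.11 and 0.22. In the values as deposited, the medians over the 84 genes in the other 3 intact mice lay within the range of the 4 impaired mice. After quantile normalization those of intact mice 1 and 3, at -0.033 and -0.039, lay below the impaired range of -0.014 to 0.039. Impaired mouse 1 was then at 0.039 and the highest mouse for 18 of the 84, against 0.062 in intact mouse 2.

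**Figure D2:**
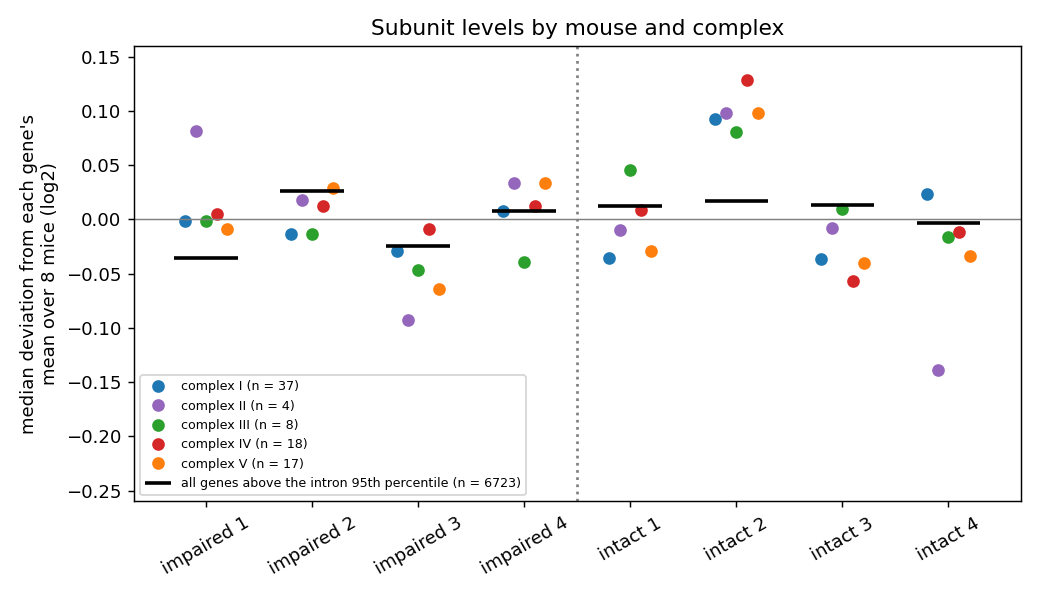
Median deviation (log2) of the genes of each complex from their means over the 8 mice, 1 point a complex and mouse, impaired mice left and intact mice right of the dotted line; black bars show the same for all 6723 genes above the 95th percentile of the intron controls. In intact mouse 2 the points of all 5 complexes lie between 0.080 and 0.13, while the black bar is at 0.017.

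Other mitochondrial genes and markers of cell types and regions were also set by mouse. In intact mouse 2 the median deviation was 0.080 for 17 genes of the tricarboxylic acid cycle and pyruvate dehydrogenase, 0.14 for 7 adenine nucleotide, phosphate and outer membrane carriers. For the assembly factors of complexes I, II, III and IV it was 0.00054, 0.023, 0.052 and 0.042, and for ATP synthase assembly and regulation 0.13. It was 0.089 for 12 neuron markers, 0.18 for 8 interneuron markers, 0.26 for 9 oligodendrocyte markers, 0.46 for 12 thalamus markers and 0.56 for 13 choroid plexus markers in the same mouse. It was 0.19 for 12 endothelial and mural markers, 0.063 for 9 microglia markers, 0.037 for 9 astrocyte markers and -0.036 for 10 hippocampal subfield markers. The mitochondrial lists were not highest in intact mouse 2 alone. Impaired mouse 2 was at 0.080 for the tricarboxylic acid cycle and pyruvate dehydrogenase genes and at 0.093 for the carriers. It was at 0.062, 0.086, 0.074 and 0.038 for the assembly factors of complexes I to IV. For ATP synthase assembly and regulation it was at 0.17. Plexus markers were highest in intact mouse 1 (1.06), and oligodendrocyte markers in intact mouse 4 (0.27). The part of these cells in the subunit levels was not tested.

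**Figure D3:**
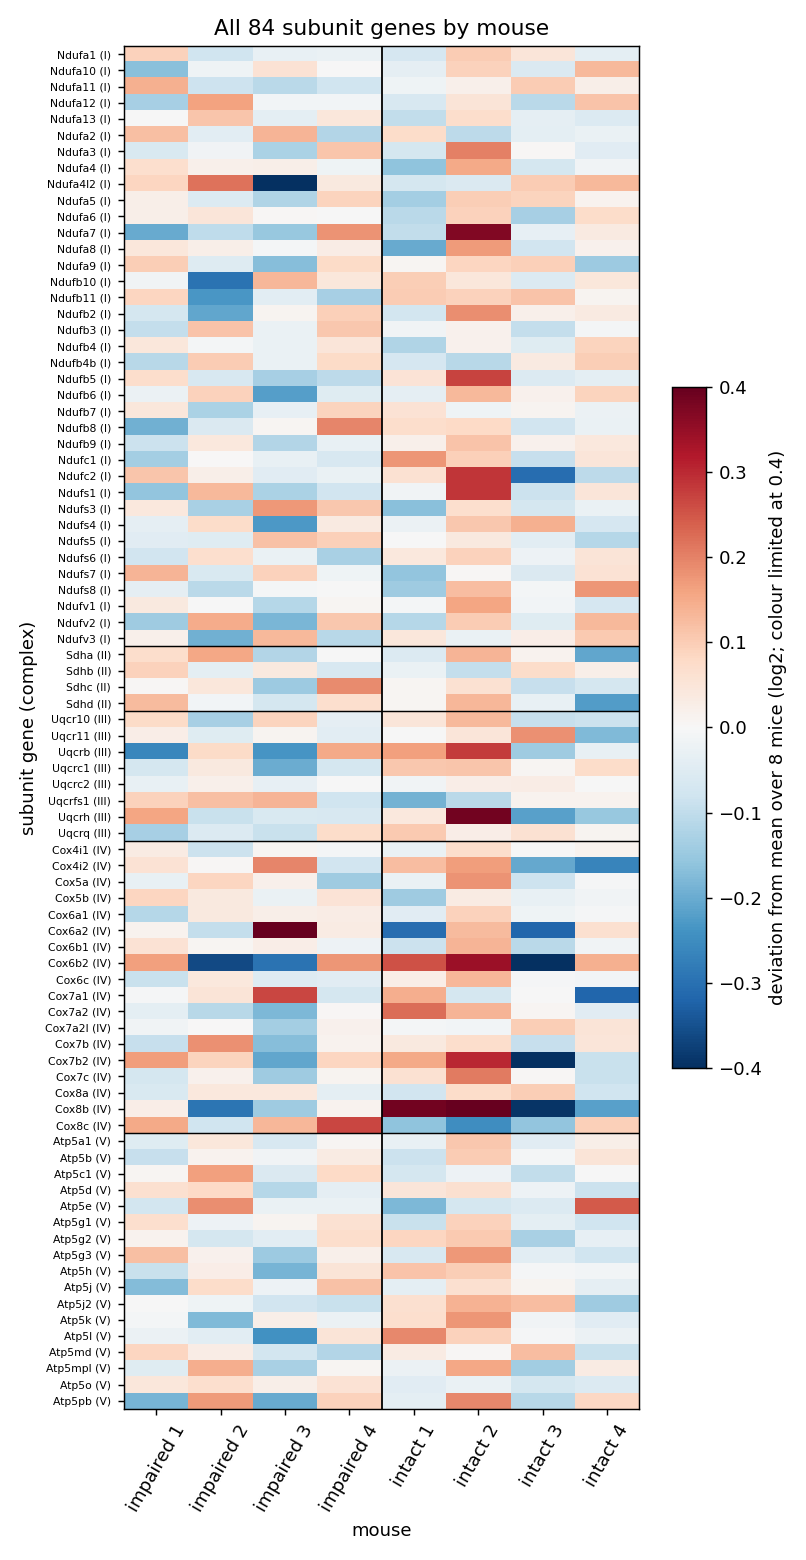
Deviation of each of the 84 subunit genes (rows, with the complex in brackets) from its mean over the 8 mice (columns, impaired left and intact right of the black line), on a log2 colour scale limited at 0.4. The column of intact mouse 2 is red for 71 genes, and no other column is as uniform.

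Complex I takes electrons from NADH. Its flavoprotein and iron-sulfur subunits (Ndufv and Ndufs) form the arm that projects into the matrix and holds the redox centres, and most Ndufb subunits sit in the membrane arm. The 3 Ndufv genes differed by -0.076 to -0.033 and the 7 Ndufs genes by -0.12 to 0.097. The 14 Ndufa genes had a median difference of -0.023, the 11 Ndufb genes -0.066 and the 2 Ndufc genes -0.041. Of the Ndufb genes 8 were lower in the impaired mice.

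Ndufv1 carries the flavin that accepts electrons from NADH. Its values were 10.61, 10.57, 10.46 and 10.58 in impaired mice, against 10.56, 10.73, 10.56 and 10.50 in intact mice. The groups overlapped, and the difference was -0.036 with a 95% interval of -0.23 to 0.16. Ndufs1, the largest iron-sulfur subunit, was at 8.74, 9.02, 8.77 and 8.82 in impaired mice, against 8.88, 9.18, 8.81 and 8.94 in intact mice. The difference was -0.12 (standard error 0.11; adjusted p in limma, 0.964). Ndufv2, Ndufs7 and Ndufs8, which hold further iron-sulfur clusters, differed by -0.033, 0.076 and -0.076.

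Ndufb11, an X-linked accessory subunit of the membrane arm, had the largest difference in complex I. It stood at 8.61, 8.29, 8.48 and 8.39 in impaired mice, against 8.63, 8.62, 8.64 and 8.54 in intact mice. The intact values lay close together, and impaired mouse 1 lay among them. The difference was -0.16 (standard error 0.091; adjusted p in limma, 0.963). Without impaired mouse 1 the difference was -0.22, and its adjusted p in limma was 0.999.

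Ndufc1, an accessory subunit of the membrane arm, had values of 11.14, 11.28, 11.25 and 11.22 in impaired mice, against 11.45, 11.37, 11.19 and 11.33 in intact mice. Intact mouse 3 lay within the impaired range, and the difference was -0.11 (standard error 0.088). Ndufb9 was at 11.17, 11.30, 11.14 and 11.23 in impaired mice, against 11.28, 11.37, 11.28 and 11.30 in intact mice. Only impaired mouse 2 reached the intact range, and the difference was -0.097 (standard error 0.079). Ndufb5 was at 9.44, 9.30, 9.23 and 9.27 in impaired mice, against 9.42, 9.64, 9.32 and 9.33 in intact mice. Intact mouse 2 was the highest and the ranges overlapped, with a difference of -0.12 (standard error 0.099).

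Some symbols of the Nduf family need care. Ndufa4 was first described in complex I and is now counted as a subunit of complex IV. It stood at 11.58 ± 0.035 (SD, n = 4) in impaired mice and 11.53 ± 0.13 (SD, n = 4) in intact mice, and moving it to complex IV gave medians of -0.035 for complex I and -0.012 for complex IV. Ndufa4l2 is a hypoxia-induced relative of Ndufa4 and not a standard subunit. Its values were 6.63, 6.76, 6.10 and 6.59 in impaired mice, against 6.47, 6.49, 6.65 and 6.67 in intact mice, with impaired mouse 3 the lowest. Ndufb4b is annotated beside Ndufb4 as a near copy, and which of them a probe's signal comes from is uncertain. They differed by 0.022 and 0.030.

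Complex II oxidises succinate to fumarate and is also an enzyme of the tricarboxylic acid cycle. Its 4 genes had marginally higher values in the impaired mice, by 0.014 to 0.057, each smaller than its standard error. Sdha, the flavoprotein that binds succinate, had values of 9.02, 9.10, 8.83 and 8.94 in impaired mice, against 8.89, 9.08, 8.96 and 8.74 in intact mice. Sdhb, the iron-sulfur subunit, was at 9.86 ± 0.072 (SD, n = 4) in impaired mice and 9.84 ± 0.072 (SD, n = 4) in intact mice. Sdhc and Sdhd, the membrane anchors, differed by 0.047 and 0.057. The ranges of the groups overlapped for all 4.

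Complex III moves electrons from ubiquinol to cytochrome c. Uqcrc1, a core protein without a redox centre, stood at 10.01, 10.12, 9.88 and 10.01 in impaired mice, against 10.19, 10.19, 10.09 and 10.15 in intact mice. Only impaired mouse 2 reached the intact range. The difference was -0.15 (standard error 0.084; adjusted p in limma, 0.963), or 1.11-fold lower, and it ran from -0.19 to -0.11 over all settings. Uqcrfs1, the Rieske iron-sulfur protein, had the opposite sign. It stood at 9.53, 9.56, 9.57 and 9.36 in impaired mice, against 9.25, 9.33, 9.45 and 9.45 in intact mice, a difference of 0.14 (standard error 0.091, limma adjusted p = 0.964).

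Uqcrq, a small subunit that binds ubiquinone, was at 9.15, 9.23, 9.19 and 9.35 in impaired mice, against 9.38, 9.31, 9.34 and 9.29 in intact mice. Impaired mouse 4 lay in the intact range, and the difference was -0.10 (standard error 0.082). Uqcrc2, the second core protein, had the smallest SD of complex III in both groups, at 8.85 ± 0.025 (SD, n = 4) in impaired mice and 8.87 ± 0.021 (SD, n = 4) in intact mice. Uqcrh, the hinge protein that docks cytochrome c1, averaged 11.07 ± 0.12 (SD, n = 4) in impaired mice, against 11.12, 11.47, 10.87 and 10.93 in intact mice, with intact mouse 2 the highest and a wide spread among intact mice.

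Complex IV reduces oxygen to water. Its nuclear subunits surround a mitochondrially encoded core, and several come as pairs of which one is made in most tissues and the other in muscle, lung or testis. The ubiquitous Cox4i1 stood at 10.46 ± 0.051 (SD, n = 4) in impaired mice and 10.49 ± 0.041 (SD, n = 4) in intact mice, with a 95% interval of the difference of -0.20 to 0.14. Cox5a and Cox5b differed by -0.033 and 0.076. Cox6a1, Cox6b1, Cox7b and Cox8a, the partners of the tissue-restricted forms, differed by -0.012, 0.036, -0.033 and -0.0083. Each of these 7 differences was smaller than its standard error.

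Cox7a2, the ubiquitous form of subunit VIIa, had the largest difference among the ubiquitous forms. Its values were 9.46, 9.39, 9.32 and 9.51 in impaired mice, against 9.73, 9.64, 9.51 and 9.46 in intact mice. Intact mouse 4 lay within the impaired range and intact mouse 3 just above it. The difference was -0.16 (standard error 0.092; adjusted p in limma, 0.963), and the other settings gave -0.20 to -0.11. Its relative Cox7a2l, a factor that joins complexes III and IV into supercomplexes, differed by -0.064 (standard error 0.080).

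Of the tissue-restricted forms, only Cox6a2 lay above the 95th percentile of the intron controls. Cox6a2 is the muscle form of subunit VIa and is also known in parvalbumin interneurons. It stood at 8.90, 8.79, 9.37 and 8.92 in impaired mice, against 8.58, 9.01, 8.57 and 8.95 in intact mice. Impaired mouse 3 stood alone at the top, and intact mice 1 and 3 at the bottom. The difference was 0.22 (standard error 0.15; adjusted p in limma, 0.964). Pvalb, the defining gene of those interneurons, was at 8.94, 8.83, 8.95 and 8.37 in impaired mice, against 8.47, 8.99, 8.20 and 9.04 in intact mice, and was also low in intact mice 1 and 3, but likewise in impaired mouse 4. The 8 interneuron markers had median deviations of 0.095, -0.0050, -0.11 and 0.020 in impaired mice, against -0.15, 0.18, -0.082 and 0.043 in intact mice. In impaired mouse 3, where Cox6a2 was highest, their median was -0.11 while Pvalb was at 8.95. The part of interneurons in the level of Cox6a2 was not tested.

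Cox8c, a testis form of subunit VIII, lay below the 75th percentile of the intron controls, where a signal cannot be told from background. Its values were 6.16, 5.93, 6.14 and 6.28 in impaired mice, against 5.85, 5.76, 5.85 and 6.11 in intact mice. Intact mouse 4 lay within the impaired range. The difference was 0.24 (standard error 0.11; adjusted p in limma, 0.963), and over all settings it ran from 0.19 to 0.31. Cox7a1, Cox7b2 and Cox8b also lay below that percentile and differed by 0.12, 0.065 and -0.20, each with a standard error of at least 0.118. Cox4i2, the lung form, and Cox6b2, the testis form, lay between the percentiles and differed by 0.089 and -0.16.

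The dim forms Cox8b, Cox6b2 and Cox7b2 varied more between mice than between groups. Cox8b was at 5.72, 5.41, 5.56 and 5.71 in impaired mice, against 6.08, 6.32, 5.31 and 5.48 in intact mice. Cox6b2 was at 7.27, 6.74, 6.81 and 7.28 in impaired mice, against 7.36, 7.45, 6.68 and 7.25 in intact mice. All 3 were highest in intact mouse 2 and lowest in intact mouse 3. The other dim forms did not share this order. Cox8c was lowest in intact mouse 2 (5.76). Cox7a1 and Cox4i2 were highest in impaired mouse 3 (6.40 and 7.06) and lowest in intact mouse 4 (5.82 and 6.60). The choroid plexus markers had median deviations of 0.10, -0.33, -0.83 and 0.24 in impaired mice, against 1.06, 0.56, -0.96 and 0.43 in intact mice, and were also lowest in intact mouse 3. Thalamus, oligodendrocyte and microglia markers were lowest in that mouse too, at -1.29, -0.33 and -0.21. Neuron, interneuron, astrocyte, endothelial and mural, and hippocampal subfield markers were not. The part of plexus tissue or of any other cells in the levels of these dim forms was not tested.

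Complex V makes ATP. Its F1 part holds the catalytic sites, a ring of c subunits turns in the membrane, and a peripheral stalk keeps the F1 part from turning along. The 5 genes of the F1 part had a median difference of -0.0034, the 3 c-ring genes 0.0073, the 4 peripheral stalk genes -0.030 and the 5 other membrane subunits -0.092. The catalytic subunit Atp5b stood at 12.16, 12.27, 12.24 and 12.29 in impaired mice, against 12.16, 12.35, 12.24 and 12.30 in intact mice. The groups overlapped almost fully, and the interval of the difference ran from -0.21 to 0.15. Atp5c1, the rotating central subunit, differed by 0.096 (standard error 0.083). The c-ring genes Atp5g1, Atp5g2 and Atp5g3, which encode the same mature protein, differed by 0.058, -0.014 and 0.0073.

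Atp5o, the stalk subunit that gives the enzyme its sensitivity to oligomycin, was the 1 subunit gene of 84 (1.19%) whose groups did not overlap, against 2.76% of all genes. Its values were 10.30, 10.32, 10.27 and 10.31 in impaired mice, against 10.20, 10.22, 10.18 and 10.19 in intact mice. Both groups were tight, at 10.30 ± 0.019 (SD, n = 4) in impaired mice and 10.20 ± 0.018 (SD, n = 4) in intact mice. The difference was 0.097, or 1.07-fold. Limma, which draws the spread of a gene towards that of all genes, gave a standard error of 0.073 (adjusted p = 0.964). Over all settings the difference ran from 0.090 to 0.13. Intact mouse 2 was the highest intact mouse here too.

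Atp5l, subunit g of the membrane part, was at 9.57, 9.56, 9.36 and 9.65 in impaired mice, against 9.79, 9.69, 9.59 and 9.57 in intact mice. Impaired mouse 3 was the lowest, and the difference was -0.13 (standard error 0.095; adjusted p in limma, 0.964). All 5 of the other membrane subunits had lower values in the impaired mice, by -0.13 to -0.012, and none of them had an unadjusted p under 0.05.

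**Figure D4:**
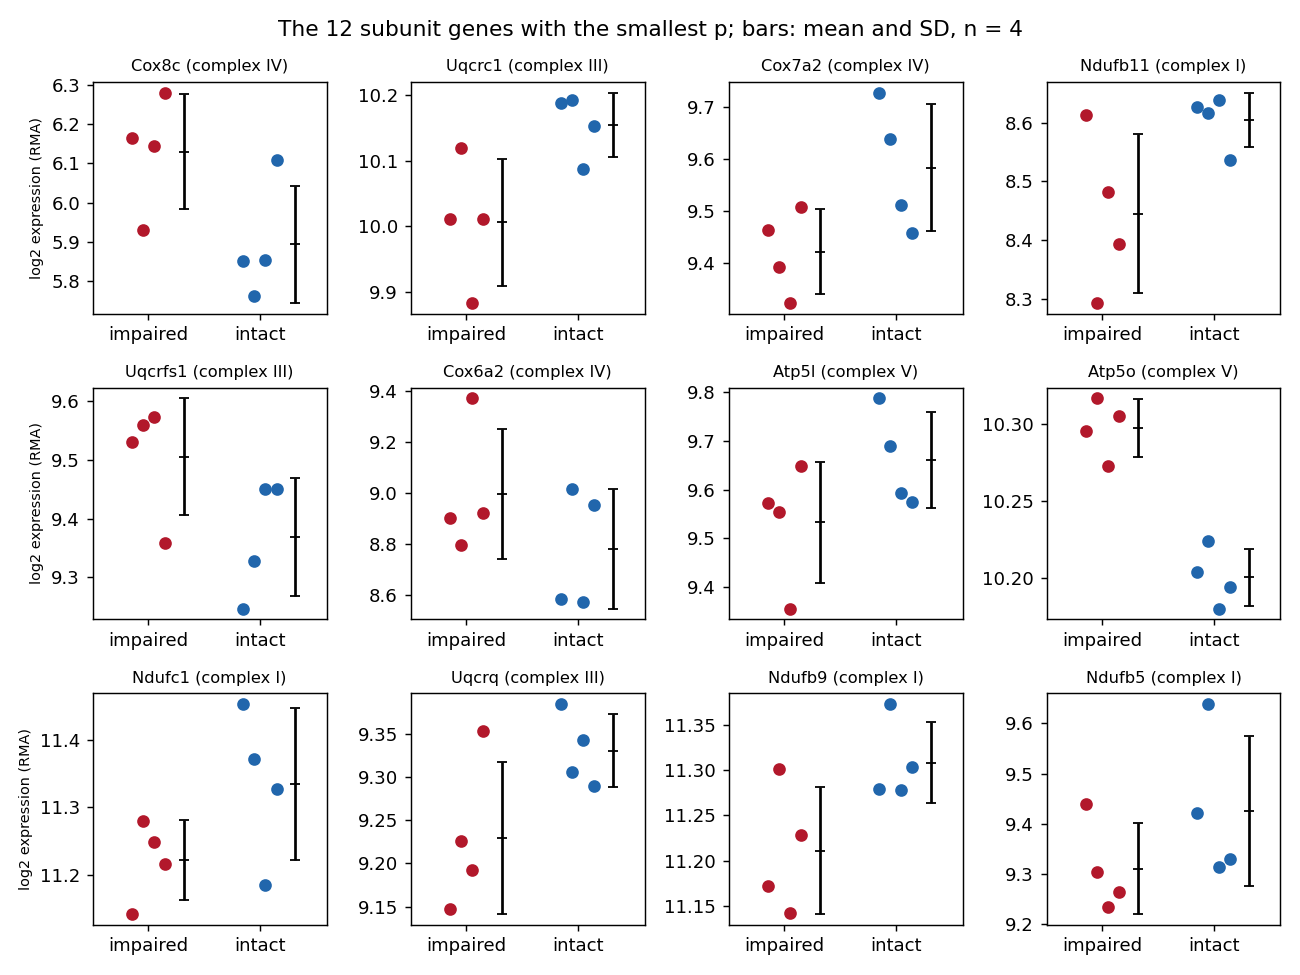
Log2 expression of the 12 subunit genes with the smallest p, 1 point a mouse, with the mean and SD of each group (n = 4) as a bar; each panel has its own axis, which does not start at 0. The groups overlap in all panels but that of Atp5o, where 10.27 to 10.32 in impaired mice stands against 10.18 to 10.22 in intact mice.

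The promoters of many respiratory genes hold sites for nuclear respiratory factor 1 (NRF1) and for GABPA, also called NRF2, which are known to drive these genes together. RefSeq promoter windows on build GRCm38.p6, from 250 bases before to 50 after a gene's start, were found for 69 of the 84 subunit genes. The NRF1 letters, a GCGC on either side of A and any base, searched on both strands, stood in a window of 17 of these 69 genes (24.6%), against 7.63% of the 15691 genes of the array with a window and 5.19% of all 27025 genes in the table. The GABPA letters CCGGAAGT, on both strands, stood in 5 of 69 (7.25%), against 5.88% and 4.31%. Either was found for 21 subunit genes (30.4%), against 12.8% of the genes of the array. The windows of the subunit genes were also rich in CpG, with a median of 19 CpG in 300 bases, against 14 for the genes of the array and 7 for all windows. The NRF1 letters themselves contain 2 CpG, so that these shares move together.

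By complex, the NRF1 letters were found for 7 of 33 genes of complex I, 2 of 3 of complex II, 1 of 5 of complex III, 1 of 13 of complex IV and 6 of 15 of complex V. A match of letters describes the sequence and does not show binding. These stretches are printed 5′ to 3′ along the gene's strand, with the matched letters in capitals, to show the shared element in 1 gene of each of 4 complexes and the GABPA letters in the remaining one. The Sdha stretch holds 2 matches and ends its last match 45 bases before the start of the gene, the Atp5c1 match ends 7 bases before it, and the Uqcrh match, the GABPA letters read on the other strand, ends 3 bases before it.
Ndufa8, complex I, chr2:36049347-36049380, minus strand: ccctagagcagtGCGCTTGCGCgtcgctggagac
Sdha, complex II, chr13:74350274-74350350, minus strand: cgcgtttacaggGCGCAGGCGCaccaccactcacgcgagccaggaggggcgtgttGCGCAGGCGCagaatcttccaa
Uqcrh, complex III, chr4:116075071-116075093, minus strand: ggagtatgccgcACTTCCGGcca
Cox6a1, complex IV, chr5:115349054-115349132, minus strand: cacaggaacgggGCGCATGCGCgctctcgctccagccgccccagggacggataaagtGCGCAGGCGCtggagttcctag
Atp5c1, complex V, chr2:10080433-10080461, minus strand: gcctgagctcccGCGCACGCGCactgagt

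The genes printed above differed little between the groups: Ndufa8 by 0.045, Sdha by 0.055, Uqcrh by -0.029, Cox6a1 by -0.012 and Atp5c1 by 0.096. Among the 14 measured regulators of mitochondrial biogenesis, which include NRF1 and GABPA themselves, 7 were higher and 7 lower in the impaired mice, with a median of 0.012 and 0 with an unadjusted p under 0.05. Tfb2m, a transcription factor of mitochondrial DNA, had the smallest p among them, at 8.09 ± 0.043 (SD, n = 4) in impaired mice and 7.96 ± 0.050 (SD, n = 4) in intact mice (difference 0.13, limma adjusted p = 0.963). Ppargc1a, the coactivator PGC-1alpha, differed by 0.055 (standard error 0.078).

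The rest of the pathway gave 0 calls as well. The assembly factors of complexes I, II, III and IV had median differences of 0.016, 0.033, -0.018 and 0.0044 over 16, 4, 6 and 20 measured genes, and the 5 genes of ATP synthase assembly and regulation 0.056. Lyrm7, an assembly factor of complex III, had values of 7.86, 8.34, 8.15 and 8.30 in impaired mice, against 8.53, 8.24, 8.44 and 8.52 in intact mice. Impaired mouse 1 was the lowest and the ranges overlapped, with a difference of -0.27 and a standard error of 0.12 (limma, adjusted p = 0.963). Sdhaf4, an assembly factor of complex II, differed by 0.33 (limma, adjusted p = 0.963). It was the only one of these assembly genes with an unadjusted p under 0.05 in limma. Over all settings its smallest adjusted p was 0.605. Its mean was 5.36 in impaired mice and 5.03 in intact mice, both below the 75th percentile of the intron controls. Coa7 of complex IV, Timmdc1 of complex I and Tmem70 of complex V differed by 0.20, 0.11 and 0.11.

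Ndufab1, the acyl carrier protein of complex I that the symbol rule leaves out, differed by -0.10. Cyc1, the cytochrome c1 subunit of complex III, which the rule also leaves out, differed by -0.0030, and the electron carrier Cycs by -0.016. The testis cytochrome Cyct and the testis carrier Slc25a31 differed by 0.36 and 0.50 (unadjusted p = 0.0418 and 0.0380, limma adjusted p = 0.963 for both), at levels below the 75th percentile of the intron controls in both groups. The 17 genes of the tricarboxylic acid cycle and pyruvate dehydrogenase had a median of -0.0045, with 8 higher and 9 lower and 0 with an unadjusted p under 0.05. Dlst, a subunit of the oxoglutarate dehydrogenase complex, had the smallest p of these, with a difference of 0.10 (standard error 0.089).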

How the data were processed

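Hippocampal RNA of 8 mice (4 impaired, 4 intact memory) was amplified from 1 ng per the labels' protocols and hybridised to 1 array each. The deposited log2 values were made by the authors with RMA, per the submitters' processing notes. RMA corrects background, normalizes by quantiles and summarizes probes, and it compresses differences of dim genes. Software version and build of the probe design were not stated in the labels used. Of 29129 probe sets, 19572 had 1 gene symbol in the platform's probe table. The brightest probe set of each gene was used (55 genes had more than 1, no subunit gene did), with no filter. Of the subunit genes, 83 of 84 passed a filter that leaves out the dimmest 25%. Columns without a sample numbered 0.

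Differences were fitted over all 19505 genes with limma 3.58.1 in R 4.3.3 (lmFit, eBayes, two-sided, Benjamini-Hochberg), and checked on simulated data. Named were the 12 subunit genes with the smallest p, those whose groups do not overlap, core subunits, isoform pairs, and 1 gene of each pathway list; Uqcrh, Ndufa8, Ndufb4, Ndufb4b, Ndufab1, Cyc1, Cycs, Ppargc1a and Pvalb were added after their values were seen. Subunit genes and lists were chosen with earlier results of these data known. Alternatives covered filtering, scaling, variance model, array weights, probe choice, replicate number as a block, and leaving out each mouse. Sequences are RefSeq's. Protein lengths and mitochondrially encoded genes were not analysed here.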

Additional observations from a re-analysis of the deposited data

Results flagged for a closer look

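In 116 groups of 4 mice (named genes and medians of the complexes), the gap between an extreme mouse and its neighbour, as a share of the group's range, exceeded Dixon's 95% critical value in 3, and chance flags about 1 group in 20. The ATP synthase genes of intact mouse 2 stood apart, with a median deviation of 0.099 against at most -0.029 in the other intact mice (ratio 0.918). Atp5g3, a c-ring gene, was 10.89 in the same mouse and at most 10.67 in the other intact mice (ratio 0.848). Cox6a1 was 12.79 in impaired mouse 1, below the other impaired mice (ratio 0.895).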

How the results depend on the processing

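Over all settings, 0 subunit genes were called by limma, with a smallest adjusted p of 0.763. Under limma's robust prior with a trend on intensity, 1 gene of all genes was called, which was no subunit gene, and in all other settings 0 were. Subunit genes with an unadjusted p under 0.05 numbered 1 (Cox8c) without the dimmest 25% of genes and 1 with the replicate block, and 0 to 1 when a mouse was left out (Cox8c or Ndufb11). The median of complex III ran from -0.087 to -0.015 when a mouse was left out, with -0.064 without intact mouse 3 and -0.087 without intact mouse 4. Relative to all genes above the 95th percentile of the intron controls, an alternative added after seeing the data, the median of all subunit genes was -0.0071. Over all genes, deviations of same-numbered mice correlated at -0.093 to 0.022, and 0 of 4 matched its own number best. A pairing of the mice by replicate number that touched few genes could not be seen this way. With the number as a block, 946 genes had an unadjusted p under 0.05, against 963 without it, and 0 were called. Of the 42 named subunit genes, 16 had differences on both sides of 0 over the settings, and each of these was smaller than its standard error in the values as reported. The number of arrays, 4 a group, limits the precision.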
